A study of Mus musculus with 18 samples.

Results

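Domain boundaries with loops running away from them on both sides were chosen by the positions of loop anchors, and there were 3861 of them among 16231 autosomal boundaries (17433 with the X chromosome). A loop is a pair of genome positions, its anchors, that meet more often in the nucleus than their surroundings. The left anchor is the end at the lower coordinate and the right anchor the end at the higher coordinate. Domains are chromosome segments with more contacts inside than across their ends, and each coordinate at which 1 or more of them began or finished was counted as 1 boundary. A boundary was called divergent when it had at least 1 right anchor midpoint from 0 to 50 kb below it and at least 1 left anchor midpoint from 0 to 50 kb above it. The loops on both sides then point away from the boundary, one towards lower and the other towards higher coordinates.

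The study made 18 Micro-C libraries from G1E-ER4 cells, a line of mouse erythroblasts. Micro-C cuts chromatin between nucleosomes with micrococcal nuclease and ligates DNA ends that lie close together. All cells carried the LDB1-AID genotype, in which LDB1, a protein that bridges transcription factors at distant sites, carries an auxin-inducible degron. The labels give 9 untreated samples and 9 samples with 4 h of auxin. They describe 1 subline, so nothing here extends to other clones. The loops and the domains came as 1 list each, with no value for a sample or a treatment, and which samples entered them is not stated. Neither an effect of auxin nor the depth of a library could be read from them, and there are no replicates behind any value. Spread over the 19 autosomes is given in place of replicates, and differences between classes are described with no test.

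As background, many loops are thought to form when cohesin reels in chromatin until it meets CTCF bound at its sites. CTCF holds cohesin mainly when its site faces the incoming loop, so the ends of such a loop carry sites that face each other. A boundary between adjacent loop domains therefore often has CTCF sites pointing away from each other. In erythroid cells, LDB1 links distal enhancers and promoters, and loops of that kind need no CTCF. The lists do not say which loops are of which kind, and no sequence or factor binding at the anchors was examined here.

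The rule set the anchors of the classes, so their numbers are a description. There were 2588 boundaries with a right anchor below and no left anchor above, called right-only, and 2542 with a left anchor above and no right anchor below, called left-only. The remaining 7240 boundaries had neither. Divergent boundaries made up 23.7% ± 5.32 of the boundaries of a chromosome (SD over 19 autosomes). The share was lowest on chromosome 3, at 17.4%, and highest on chromosome 11, at 36.9%. Chromosomes with more loops per Mb had larger shares. Across the 19 autosomes Pearson's r was 0.90 and Spearman's rho 0.85, and r was 0.77 without the 2 chromosomes farthest from the median loop density. This follows in part from the rule, since more anchors make both windows more likely to hold one.

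The order of the anchors mattered for these counts. The mirrored arrangement, with a left anchor 0 to 50 kb below and a right anchor 0 to 50 kb above, was found at 1121 boundaries, which is 6.91% of all autosomal boundaries. Divergent boundaries were 3.44 times as many as mirrored ones, and they were more numerous on 19 of 19 autosomes. Both arrangements held at 654 boundaries, 16.9% of the divergent ones. Of right-only boundaries 6.45% were mirrored, and of left-only boundaries 8.62%.

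**Figure D1:**
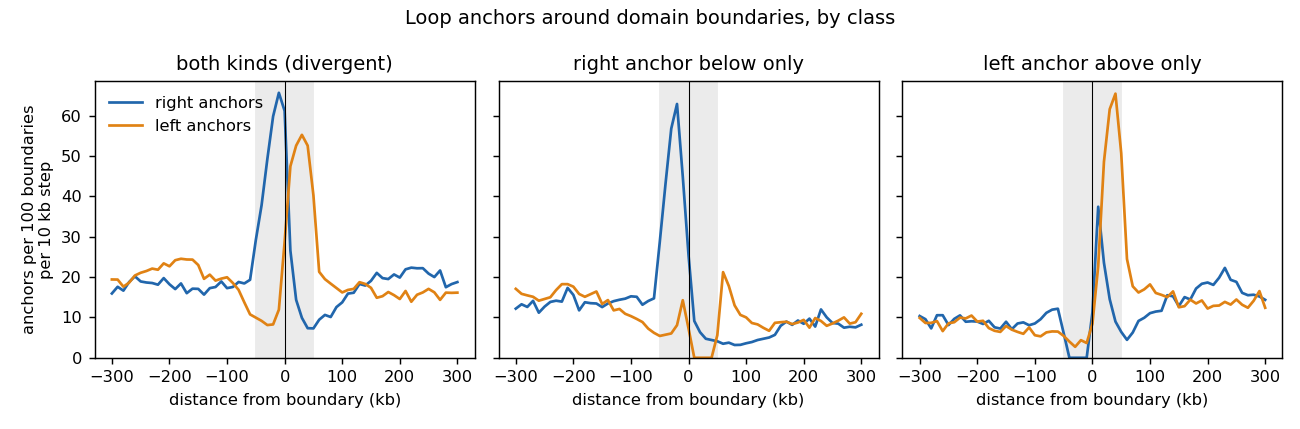
Right anchors (blue) and left anchors (orange) per 100 boundaries in steps of 10 kb, by distance from the boundary, with the windows of the rule shaded. Right anchors peak at -10 kb and left anchors at 30 kb around divergent boundaries, and left-only boundaries have a second peak of right anchors at 10 kb, just outside the window below.

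The nearest flanking anchors overlapped at few boundaries. The gap, from the midpoint of the nearest right anchor below to that of the nearest left anchor above, had a median of 37.5 kb (95% CI 36 to 37.5 kb, n = 3861). Its quartiles were 20 and 54 kb, and the medians of single autosomes ran from 30 to 42 kb. Anchors are 10 kb wide, so a gap under 10 kb means that both anchors overlap. This was so at 306 divergent boundaries, a share of 7.93% (95% Wilson interval 7.11 to 8.82%). At 48 of them the midpoints of both anchors lay exactly on the boundary. The gap was 60 kb or more at 759 boundaries, or 19.7%. Its size depended on the rule, which limits each distance to 50 kb. With a window of 30 kb the median gap was 25 kb, and with a window of 100 kb it was 50 kb.

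**Figure D2:**
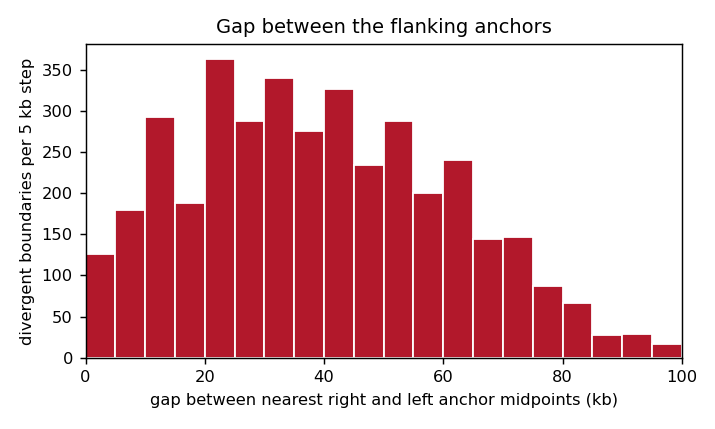
Number of divergent boundaries (vertical axis) in steps of 5 kb of the gap between the midpoints of the nearest flanking anchors (horizontal axis, kb). The gap cannot pass 100 kb under the rule, and its median was 37.5 kb.

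The boundary did not sit in the middle of the gap. The nearest right anchor was at a median of 14 kb (quartiles 5 and 27.5 kb) and the nearest left anchor at 20 kb (quartiles 10 and 32.5 kb). The right anchor was the nearer one at 2172 boundaries (56.3%), the left anchor at 1480 (38.3%), and 209 had both at the same distance. The centre of the gap lay 1.96 kb ± 9.23 above the boundary (mean and SD over 3861 boundaries), and its mean was above the boundary on 19 of 19 autosomes. This offset is smaller than 1 anchor.

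Anchors lay closer to divergent boundaries than to one-sided ones. The nearest right anchor was at a median of 20 kb from right-only boundaries, 6 kb farther than at divergent ones, with a larger median on 16 of 19 autosomes. The nearest left anchor was at 27.5 kb from left-only boundaries, 7.5 kb farther, on 19 of 19 autosomes. Divergent boundaries also had more anchors on a side, and more anchors bring the nearest one closer. Where the window held exactly 1 right anchor, the median distance was 20 kb for 1418 divergent and 22.5 kb for 1224 right-only boundaries. With exactly 1 left anchor the distances were 22.5 kb for 1660 divergent boundaries and 30.8 kb for 1228 left-only boundaries. With a single anchor on the side, the classes thus still differed in the same direction.

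Many one-sided boundaries had the missing kind of anchor just across the boundary. Of the left-only boundaries, 844 (33.2%, 95% Wilson interval 31.4 to 35.1%) had a right anchor midpoint up to 20 kb above them. Of the right-only boundaries, 428 (16.5%, interval 15.2 to 18.02%) had a left anchor midpoint up to 20 kb below them. A shift of the boundary coordinate by 20 kb or less would bring that anchor into its window, so the classes depend on where the boundary was placed.

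At 393 divergent boundaries the farther of both nearest anchors was more than 45 and at most 50 kb away, and at 215 boundaries just outside it was more than 50 and at most 55 kb away. The median gap was 69.5 kb inside and 74 kb outside. A mean of 2.69 loops crossed those inside and 2.49 those outside, and a corner loop of a domain was present at 10.7% of either set. Use by at least 2 domains was 39.4% inside and 34.9% outside.

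Divergent boundaries usually had several loops on at least 1 side, which was not particular to them. They had a mean of 2.79 loops with a right anchor below and 2.59 with a left anchor above. Right-only boundaries had a mean of 2.497 loops below and left-only boundaries 2.445 above, and the median was 2 in each case. Exactly 1 loop on each side was found at 352 divergent boundaries (9.12%), at least 2 on each side at 1920 (49.7%) and at least 5 on each side at 87 (2.25%). The flanking loops numbered 9943, which is 48.4% of the 20535 autosomal loops. Loops ending below divergent boundaries had a median span of 182 kb (n = 5950, 95% CI 180 to 190 kb), and loops starting above them 210 kb (n = 5502, 95% CI 210 to 220 kb). The median over all autosomal loops was 175 kb. Loops that ended below right-only boundaries and below no divergent one had a median span of 215 kb (n = 2831), and loops that started above left-only boundaries and above no divergent one 230 kb (n = 2962). Flanking loops of divergent boundaries thus had shorter median spans than these sets on both sides. Loops that flanked both a divergent and a one-sided boundary were counted with the divergent ones only. The spans were not compared at like anchor density.

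Both sides of a divergent boundary often differed in reach. The longest loop below had a median span of 300.0 kb and the longest loop above 330.0 kb. The longer of the pair was 2.05 times the shorter in the median, and at least 2 times at 2000 boundaries (51.8%). Spans varied widely in the whole list, with quartiles of 92 and 335 kb over all autosomal loops. No such share was taken for other pairs of loops, so the difference is not particular to divergent boundaries as far as is known here.

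Divergent boundaries were not joined to one another more often than the rest of the list was. Of the loops that ended below a divergent boundary, 1509 (25.4%, 95% Wilson interval 24.3 to 26.5%) also started above one. Among all autosomal loops 26.8% started above a divergent boundary. From the other side, 27.4% of the loops that started above a divergent boundary also ended below one, against 29.0% of all autosomal loops.

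Boundaries were ranked by the number of loops on the side that had fewer, and the first of these are described here. Positions are given in mm9, as the last base below the boundary. On chromosome 8, the boundary at 26338333 had 7 loops ending below it, with spans of 56 to 670 kb, and 7 loops starting above it, with spans of 130 to 890 kb. Its nearest anchors were 10.8 kb below and 36.7 kb above, a gap of 47.5 kb, and 0 loops crossed it. It was the end of 2 domains, the larger one 717 kb long. The boundaries at 26340000 and 26355000 were flanked by the same 14 loops, the first as the start of a domain of 335 kb and the second as the end of a domain of 460 kb. The same 14 loops thus flanked 3 of the boundaries counted, and this place on the chromosome entered the count at least 3 times.

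**Figure D3:**
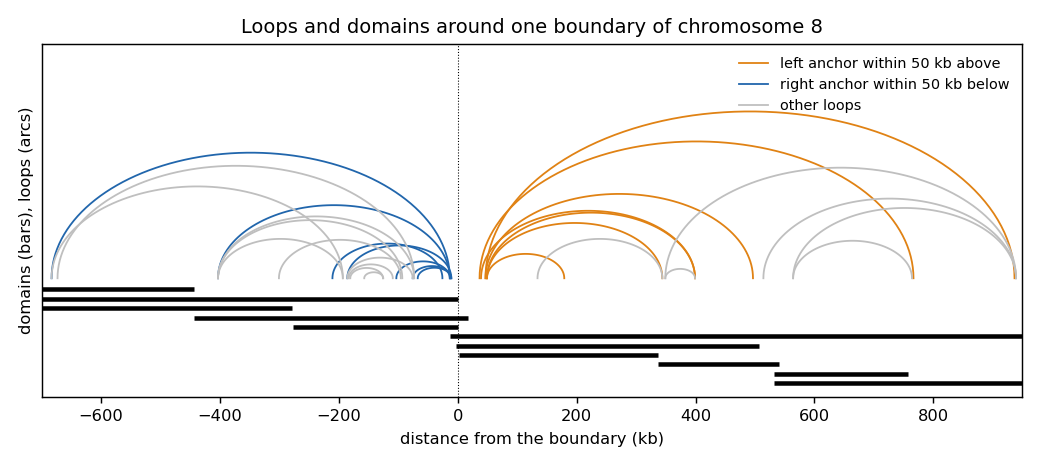
Loops (arcs from anchor midpoint to anchor midpoint) and domains (bars) by distance in kb from the boundary at 26338333 of chromosome 8. The 7 loops in blue end below the boundary, the 7 in orange start above it, 0 loops cross, and the domain that ends 16.7 kb above it counts as spanning it.

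The other pair with 7 loops on each side was at 12725000 and 12730000 on chromosome 10. Their nearest anchors touched without overlap, with a gap of 10 kb, and 1 loop crossed each. The loops below spanned 40 to 390 kb and those above 70 to 1380 kb. The boundary at 12725000 was the start of 2 domains, the larger one 1710 kb long. That at 12730000 was the start of a domain of 1320 kb, which a loop of 1305 kb joined from start to end.

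Loops crossing a boundary join a position below it to a position above it. A loop crossed 3140 of the divergent boundaries, a share of 81.3% (95% Wilson interval 80.1 to 82.5%), against 56.8% of all autosomal boundaries. The mean was 2.80 crossing loops, with autosomal means between 1.97 and 3.50. Right-only boundaries were crossed by a mean of 1.82 loops and left-only boundaries by 2.54. The mean was higher at divergent than at right-only boundaries on 19 of 19 autosomes, by 0.96 ± 0.49 loops, and higher than at left-only boundaries on 16 of 19, by 0.26 ± 0.40 loops (means and SD over autosomes). The difference from left-only boundaries was smaller than its spread.

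Divergent boundaries lay where anchors were dense, and the crossing loops moved with that density. From 50 to 500 kb away on both sides they had a mean of 24.8 distinct anchors, against 15.7 at right-only and 16.5 at left-only boundaries. All boundaries with a flanking anchor were therefore divided into tertiles of this number. In the lowest tertile, with at most 13 anchors, the mean was 1.33 crossing loops at divergent, 1.02 at right-only and 1.37 at left-only boundaries. In the middle tertile it was 2.46, 2.38 and 2.86, so divergent and right-only boundaries were close there. In the highest tertile, with at least 25 anchors, it was 3.68, 3.04 and 4.46. With equal weights on the tertiles, divergent boundaries had 0.34 more crossing loops than right-only ones and 0.40 fewer than left-only ones (a difference of -0.40). The order of divergent and left-only boundaries thus turned under these weights. Density was not made fully alike by the tertiles. In the lowest one, divergent boundaries had a mean of 9.04 anchors, right-only 6.89 and left-only 6.90. In the highest one the means were 35.9, 33.9 and 33.4. The anchors counted can also belong to the crossing loops themselves.

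The higher crossing of left-only boundaries moved with the anchors just across them. Left-only boundaries with a right anchor up to 20 kb above were crossed by a mean of 4.22 loops, and those without by 1.70. Right-only boundaries with a left anchor up to 20 kb below were crossed by 4.02, and those without by 1.39. Loops that end so shortly past the boundary cross it by construction. Loops whose anchors both lay over 50 kb from the boundary are free of this. Such loops crossed 67.2% of divergent boundaries, against 46.6% of all autosomal boundaries. A mean of 1.69 of them crossed divergent, 1.15 right-only and 1.42 left-only boundaries. In the lowest tertile of anchor density the corresponding means were 0.77, 0.65 and 0.78, in the middle one 1.48, 1.54 and 1.57, and in the highest one 2.24, 1.84 and 2.49. These loops too were more frequent at one-sided boundaries with an anchor just across them. The means were 1.86 with and 1.20 without such an anchor at left-only boundaries, and 1.94 and 0.99 at right-only ones.

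Divergent boundaries were dips in the number of crossing loops. The mean was 5.21 at the position 100 kb below, 2.80 at the boundary and 5.003 at the position 100 kb above. The boundary value was lower than both on 19 of 19 autosomes, by 2.42 ± 0.22 loops against the position below and 2.21 ± 0.22 against that above (mean and SD over autosomes). At right-only boundaries the number fell from 4.18 at 100 kb below to 1.82 at the boundary and was 2.07 at 100 kb above. At left-only boundaries it was 2.57, 2.54 and 4.54. The boundary value was lower than both positions on 17 of 19 autosomes at right-only, 12 at left-only and 19 at boundaries with neither, where the means were 0.86, 0.79 and 0.93. The drop was thus of similar size on both sides at divergent boundaries, and mostly on the side of the anchors at one-sided ones. This shape follows in large part from the rule, because loops that end below or start above a boundary do not cross it. Divergent boundaries had means of 2.79 and 2.59 such loops, larger than the drops, so the counts of autosomes describe the class. Around right-only boundaries the lowest mean within 100 kb was 1.51, at 50 kb above, where the window without left anchors ends. Around left-only boundaries it was 2.30, at 10 kb above.

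**Figure D4:**
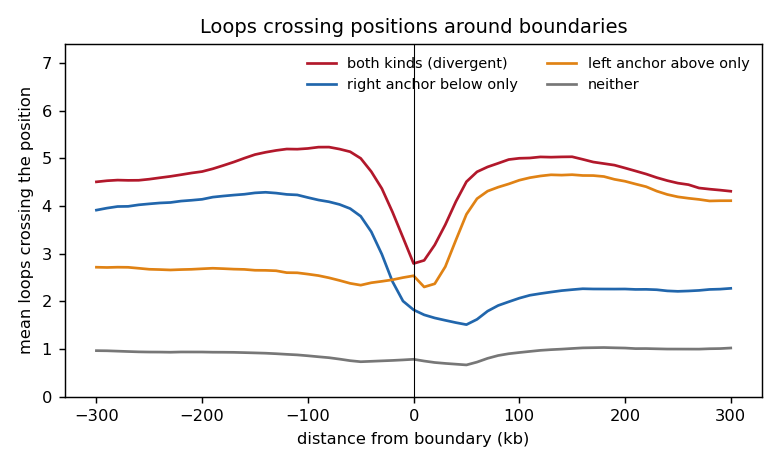
Mean number of loops crossing a position (vertical axis) by its distance from the boundary in kb (horizontal axis), for the 4 classes. Divergent boundaries fall from 5.21 at 100 kb below to 2.80 at the boundary and return to 5.003 at 100 kb above, whereas each one-sided class is high on the side of its anchors only.

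Crossing loops seldom joined the immediate flanks. A loop with its left anchor in the window below and its right anchor in the window above was found at 293 divergent boundaries (7.59%), against 3.58% of all autosomal boundaries, 4.10% of right-only and 5.04% of left-only ones. At least 3 loops crossed 1760 divergent boundaries (45.6%), against 34.5% of one-sided and 26.5% of all autosomal boundaries. The largest number, 24 loops, crossed the boundary at 116825000 on chromosome 12, which had 1 loop ending below it and 2 starting above it. It was the start of 1 domain, of 250.0 kb, and of the 24 loops 14 had both anchors over 50 kb away. On chromosome 8, boundaries at 73915000, 73920000, 73922500 and 73925000 were crossed by 21, 21, 20 and 20 loops. These 4 lie within 10 kb of each other, 20 loops crossed all of them, and at each 15 of the crossing loops had both anchors over 50 kb away.

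Use by several domains was not higher at divergent boundaries when single coordinates were counted. Of the divergent boundaries, 1446 were a start or end of at least 2 domains, a share of 37.5% (95% Wilson interval 35.9 to 39.0%). The share was 36.3% at right-only and 38.7% at left-only boundaries, and 44.2% of all autosomal boundaries. The difference between divergent and all one-sided boundaries was 0.07 ± 4.34 percentage points over autosomes, and it was positive on 7 of 19. A divergent boundary was both an end and a start in 32.9% of cases, against 40.3% of all autosomal boundaries. There were 1121 divergent boundaries with exactly 2 domains (29.0%, against 36.4% of all autosomal boundaries). Another 325 had 3 or more (8.42%), close to the 7.86% of all autosomal boundaries.

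Nearby coordinates changed this picture. When boundaries were chained wherever the next lay within 20 kb, the 16231 autosomal boundaries formed 8982 sites. The 3861 divergent boundaries lay in 2079 of these sites: 1015 sites held 1 of them, 489 held 2 and 575 held 3 or more. Among adjacent divergent boundaries of a site, 559 pairs were an end followed by a start and 609 a start followed by an end, with a median distance of 5 kb over all 1770 pairs. Domains that end and start at about the same place were thus often listed with coordinates a few kb apart, and such boundaries share their flanking anchors.

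After merging, each site was classed again at its median coordinate, which gave 1836 divergent sites. Of these, 96.6% (95% Wilson interval 95.7 to 97.4%) were used by at least 2 domains, against 92.6% of 1190 right-only and 93.6% of 1260 left-only sites. The share was 90.6% over all 8982 sites and 86.9% at sites with neither, so it was high in every class. The divergent share was higher than that of one-sided sites together on 17 of 19 autosomes. A site was both an end and a start in 95.8% of divergent sites, 91.8% of right-only, 92.3% of left-only and 85.5% of 4696 sites with neither. Over all sites this share was 89.4%. Use by 3 or more domains did not set divergent sites apart from one-sided ones, at 59.8% against 61.5% of right-only and 57.5% of left-only sites. Of sites with neither, 34.8% had 3 or more, and of all sites 46.6%.

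**Figure D5:**
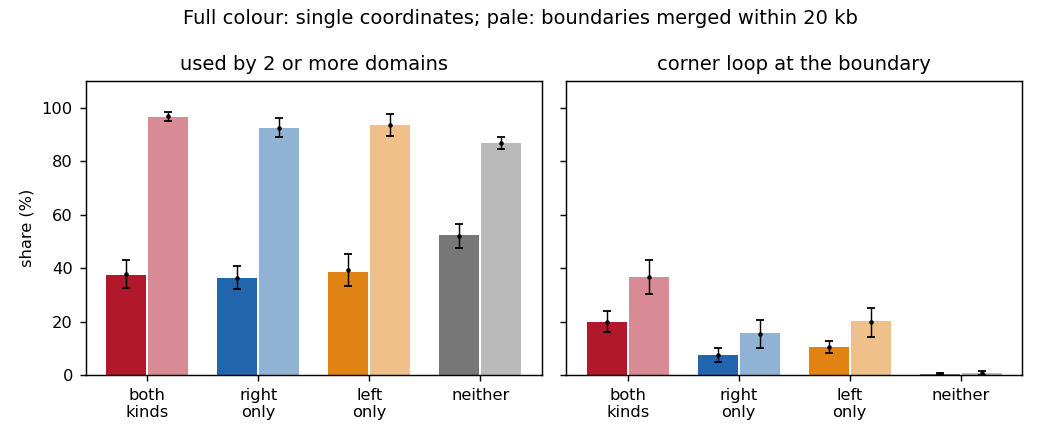
Share of boundaries (%) used by 2 or more domains (left) and with a corner loop (right) for the 4 classes, as single coordinates (full colour) and after merging within 20 kb (pale). Points and bars in black give the mean and SD over 19 autosomes. Merging raises the use by several domains in all classes, from 37.5 to 96.6% in the divergent one, and leaves the order of the classes in corner loops as it was.

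The boundaries used by most domains were the following. On chromosome 7 the boundary at 50505000 was the end of 4 domains and the start of 4, the largest 1970 kb and 970 kb long. It had 7 loops ending below it, 1 of 95 kb starting above it, a gap of 50.5 kb and 1 crossing loop. On chromosome 6 the boundary at 30335000 ended 5 domains and started 2, with 7 loops below, 5 above and 0 crossing. One loop of 630 kb joined the start and end of a domain that began there. On chromosome 2 the boundary at 130075000 ended 3 and started 4 domains and had 3 crossing loops. The boundaries at 51475000 on chromosome 7 and 56075000 on chromosome 17 were used by 6 domains each. None of these 5 lay inside a larger domain, a condition met by 193 divergent boundaries in all (4.999%, against 3.4% of all autosomal boundaries).

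Domains beside divergent boundaries were smaller than those on the side of a one-sided boundary that lacked the anchor. The largest domain ending at a divergent boundary was 340 kb long in the median (n = 2551, 95% CI 330.0 to 360 kb) and the largest one starting there 370 kb (n = 2581, 95% CI 355 to 380 kb). At right-only boundaries the domain that ended, on the side of the anchors, had a median of 420 kb and the one that started 510 kb. At left-only boundaries the domain that ended had a median of 460 kb and the one that started, on the side of the anchors, 370 kb. In both one-sided classes the side without the anchor thus had the larger median. On that side the domain was larger than at divergent boundaries on 19 of 19 autosomes for both one-sided classes. On the side of the anchors, it was larger at right-only boundaries on 18 of 19 autosomes. At left-only boundaries it was larger on 7 and smaller on 11. Domain sizes were not used by the rule, but domains were also smaller where anchors were dense. With equal weights on the tertiles of anchor density, the differences on the sides without anchors were 87.2 kb for left-only and 88.9 kb for right-only boundaries, compared with 120 and 140 kb without them.

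A corner loop joins the start of a domain to its end, each anchor within 20 kb. Such a loop was present for a domain at 773 divergent boundaries, a share of 20.02% (95% Wilson interval 18.8 to 21.3%), against 7.92% of all autosomal boundaries. Classes are best compared on a side where both have anchors. A domain ending at the boundary had a corner loop at 9.76% of divergent and 5.33% of right-only boundaries, with the divergent share higher on 17 of 19 autosomes. A domain starting at the boundary had one at 11.3% of divergent and 6.14% of left-only boundaries, higher on 18 of 19. Anchors also lay nearer to divergent boundaries, as given above, and the part of this in the 20 kb limit was not tested.

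Corner loops on both sides of a single coordinate were rare. Such a pair needs a right and a left anchor within 20 kb of the boundary, so the rule itself favours it at divergent ones. After merging, 97 of 1836 divergent sites had it (5.28%), against 0.504% of right-only, 1.75% of left-only and 1.39% of all sites. Of single coordinates, 0.116% of right-only boundaries, 0.551% of left-only ones and 0 of the 7240 with neither had it. It was found at 39 divergent boundaries (1.01%), against 0.345% of all autosomal boundaries. Those with the longest pair of loops included the boundary at 81245000 on chromosome 12, where a loop of 830.0 kb spanned the domain below and one of 570.0 kb the domain above. It had 14 loops ending below it, 6 starting above it and 0 crossing, with a gap of 10 kb. On chromosome 11, the boundary at 34640000 had corner loops of 500 and 850.0 kb, 3 loops on each side and 0 crossing. On chromosome 12, the boundary at 75411666 had corner loops of 280 and 1070 kb and 1 crossing loop. On chromosome 13, that at 111158333 had corner loops of 305 and 1030 kb and 0 crossing, and on chromosome 10, that at 39975000 had 730.0 and 265 kb, with 11 loops below, 5 above and 1 crossing.

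Where both nearest anchors did not overlap, the shortest gap was 10 kb and was shared by 146 divergent boundaries outside chromosome 18. The first of these by position, at 58465000 on chromosome 1, had 1 loop of 100 kb ending below it and 1 of 1290 kb starting above it, with 0 crossing. The next, at 69825000, was used by 3 domains and crossed by 1 loop. The boundary at 121815000 had 5 loops below and 1 above and was crossed by 10 loops. Those at 135515000 and 155325000 were crossed by 4 and 1. A short gap thus went with few crossing loops at some of these boundaries and with many at another.

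Boundary coordinates themselves differed between classes. Of the divergent boundaries, 791 (20.5%, 95% Wilson interval 19.2 to 21.8%) lay at coordinates that are no multiple of 5 kb, against 12.9% of all autosomal boundaries. The share was 17.6% at right-only and 17.5% at left-only boundaries, with the divergent share higher than both together on 15 of 19 autosomes. The number of domains spanning a boundary had a mean of 1.96 at divergent, 2.04 at right-only and 2.02 at left-only boundaries. Near-identical coordinates enter this number, as at 26338333 on chromosome 8, where a domain ending 16.7 kb past the boundary counts as spanning it.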

How the data were processed

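The deposited lists hold genome coordinates in bp, 20926 loops and 13483 domains, with no header and no values per sample (0 columns of per-sample values). Per the labels, chromatin was digested with micrococcal nuclease and ligated, and the build is mm9, per the submitters' processing notes. The aligner, callers, resolutions and the samples behind each list are not given in the sources used here. Gene and sequence tables of mm9 were not used here, so no gene, motif or sequence is reported.

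Boundaries were classed by the 50 kb rule with Python 3.11.15, numpy 2.4.6, pandas 2.3.3, scipy 1.17.1 and matplotlib 3.10.9, and the counting was tested on simulated lists. Shares have 95% Wilson intervals, which cover counting only, and medians have 95% intervals from order statistics. Both kinds of interval treat each entry as independent. Many divergent boundaries share anchors with a neighbour, so the intervals are likely too narrow. Boundaries named are, outside chromosome 18, the 5 highest or lowest for loops on both sides, domains, crossing loops, gap and paired corner loops, with ties taken by position. The members and measures were chosen with earlier results of these data known. Alternatives covered the window, nesting, merging, loop grids, X, crossing spans, anchor density and the corner distance.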

Additional observations from a re-analysis of the deposited data

How the results depend on the processing

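Of 113 values under alternatives, 80 stayed within the spread of the main value (1 SD over autosomes for medians and differences, the Wilson interval for shares, 1.5 times for counts) and 33 moved. No test was run, so these are sizes only. With a window of 30 kb there were 2321 divergent and 602 mirrored boundaries, a median gap of 25 kb, and corner loops at 26.3% of divergent boundaries, 14.3 percentage points above one-sided ones. With 100 kb there were 5522 divergent and 2619 mirrored boundaries, and the gap was 50 kb. Corner loops were then at 16.7%, and divergent boundaries had 0.69 more crossing loops than left-only ones. Domains that hold no other gave 29.6% used by several domains and 22.5% with corner loops. Domains inside no other gave 2009 divergent and 532 mirrored boundaries, 19.8% used by several domains and 12.4% with corner loops, a difference of 7.35 points. Merging within 20 kb gave 1836 divergent and 564 mirrored sites, 96.6% used by several domains and 36.9% with corner loops, a difference of 18.8 points. Loops on the 5 kb grid gave 1864 and 461 boundaries, 0.37 more crossing loops than at right-only ones, and corner loops at 14.1%, a difference of 6.69 points. Leaving out anchors within 5 kb of the boundary gave a gap of 46 kb, a right anchor distance 2.5 kb longer at right-only boundaries, and corner loops at 18.7%. Equal weights on tertiles of anchor density gave differences in crossing loops of 0.34 from right-only and -0.40 from left-only boundaries, the second with the sign turned. A corner distance of 50 kb gave 59.9% and a difference of 23.5 points. All these differences in corner loops follow in part from the rule, because a one-sided boundary lacks the anchor on 1 side. Each contact counted once, X added, and crossing loops limited to far anchors or to spans up to 500 kb moved no value. The difference in use by several domains, -0.05 points in the main count, was positive under 5 alternatives, up to 3.52 points with boundaries merged. All its values lay within 1 SD over autosomes of the main one, 4.34 points. That SD belongs to the unmerged count. After merging, the SDs of the shares were 1.70 (divergent) and 2.45 (one-sided) points, and the divergent share was higher on 17 of 19 autosomes. The 4 values for domain sizes, chosen after the data were examined, stayed within the spread. Why values moved was not tested, beyond what the wider or narrower windows and shorter lists bring with them. No paired analysis was possible because loops and domains came as 1 list each, with nothing measured for any single sample. The unknown depth means that a contact too weak to be called is missing from the list.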
